A study of Macaca mulatta with 12 samples.

Results

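CD79A, CD79B, MS4A1, MZB1, TNFRSF17, POU2AF1 and PAX5 are genes used to recognise B lymphocytes and the plasma cells that form from them. They were looked up by symbol among the 23993 Ensembl macaque gene identifiers of the deposited transcript table, and the transcripts of each identifier were summed. Of the 7 genes, 5 were found: CD79A, CD79B, MS4A1, POU2AF1 and PAX5. MZB1, a chaperone of the secretory pathway in plasma cells, and TNFRSF17, the plasma cell receptor also called BCMA, matched no identifier and are not analysed here. The plasma cell side of the panel therefore rests on POU2AF1 alone, which B cells express too, and the genes below are called B cell markers.

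The libraries came from liver biopsies of 6 male rhesus macaques (Macaca mulatta) aged about 4.6 years, each biopsied before ethanol (baseline) and at the end of a 90-day induction (post-induction). Induction took every animal through daily ethanol doses of 0.5, 1 and 1.5 g per kg of body weight, with 30 days spent on each. In the 12 months of free access that followed, 3 animals took 4.0 g per kg daily by the end and were classed as very heavy drinkers (VHD), and 3 took 1.5 g per kg daily and were classed as light drinkers (LD). The 4 groups of 3 libraries each were VHD post-induction, VHD baseline, LD post-induction and LD baseline. The classes were thus given after both biopsies, and at the time of either biopsy the VHD and LD animals had been assigned the same ethanol. A liver biopsy holds hepatocytes above all, with blood and resident immune cells in small amounts, so these values stand for whole tissue.

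B cells sense antigen through a surface immunoglobulin that cannot signal by itself. CD79A and CD79B form the pair of chains that carries its signal into the cell, and MS4A1 encodes CD20, a membrane protein of B cells that is lost when they become plasma cells. PAX5 is the transcription factor that commits a cell to the B lineage, and POU2AF1 is the coactivator of octamer-binding factors needed for germinal centres. Plasma cells switch PAX5 and MS4A1 off, turn on PRDM1 and XBP1, and secrete immunoglobulin. In the liver, B cells are a minor resident population of the portal tracts and sinusoids.

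The question for these genes was whether the future drinking class or the induction moved the B cell signal of the liver. None of the 4 B cell markers tested passed the test for a change in any of the 6 comparisons. This does not show that they stayed the same, since the intervals were wide. For PAX5 with induction in LD animals the interval ran from −0.19 to 3.09 on the log2 scale. The levels of these markers were low, differed between animals of 1 group by up to more than 10-fold, and followed each other across libraries only in part. In VHD livers all 4 had positive fitted changes with induction, 3 of 4 without the libraries that stood apart, and none passed the test. Other B cell and plasma cell genes were split in sign. Positive values were held by 8 of 17 further surface receptors and 4 of 14 signalling genes. The same was so for 7 of 12 transcription factors and 7 of 12 plasma cell genes.

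The total of transcript counts per library ranged from 5970033 to 25060718. VHD baseline 3 and VHD post-induction 2 stood apart from the others: they had the highest scores on the second principal component of all genes, 92.7 and 82.3, against at most 26.5 in the other 10 libraries. They also had the lowest ratios of miRNA counts to transcript counts, 9.39 and 11.9 per 1000, against 16.6 to 43.5 elsewhere. The members' main values that involve VHD animals are therefore also given without this pair, a fit that breaks the pairing of VHD animals 2 and 3. Markers of hepatocytes, of which 10 of 13 listed had an identifier, summed to 146500 to 269600 CPM, which are counts scaled to a common library size. The p-values rest on a spread within groups that was estimated for each gene over all 12 libraries, not on 3 animals alone. The main fit did not use the pairing and took both libraries of an animal as independent.

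All 5 B cell markers had counts in each of the 12 libraries, and all were scarce. CD79A (ENSMMUG00000047772, chromosome 19, 37638675 to 37644072, plus strand, 1 transcript) had 5 to 53 counts a library, 307 in all. CD79B (ENSMMUG00000041327, chromosome 16, 57545611 to 57551216, minus strand, 1 transcript) had 5 to 52, 242 in all. MS4A1 (ENSMMUG00000001260, chromosome 14, 13762141 to 13780657, minus strand, 2 transcripts) had 5 to 44, 272 in all. So for each of these surface proteins a library rests on 53 reads at most.

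PAX5 (ENSMMUG00000019639, chromosome 15, 47084025 to 47277550, plus strand, 3 transcripts) had 3 to 71 counts, 325 in all. POU2AF1 (ENSMMUG00000003244, chromosome 14, 104228332 to 104279050, minus strand, 2 transcripts) had 1 to 8 counts, 49 in all, and did not pass the filter on low counts. Its values are given but it entered only the fit with no filter, so 4 of the 5 genes found were tested. Positions are on Mmul_8.0.1 and a start may differ by 1 base, since the table does not say whether it counts from 0 or 1.

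Counts this small set a floor on precision. MS4A1 in LD post-induction 1 had 5 counts, which is 0.265 CPM with an exact 95% Poisson interval of 0.0860 to 0.618 CPM, counting error only. Over the 12 libraries, counting alone would give CD79A a coefficient of variation of 21.9%, and 49.5% was seen. For CD79B these were 24.2% and 54.4%, for MS4A1 23.0% and 53.0%, and for PAX5 20.9% and 64.5%. These 4 genes thus varied between libraries by over 2 times the counting error, whereas POU2AF1, at 56.0% seen against 53.6% from counting, could not be told from it.

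CD79A, the immunoglobulin-alpha signal chain, had 0.966, 2.90 and 1.71 CPM in VHD animals 1, 2 and 3 post-induction and 0.518, 1.42 and 1.04 CPM in the same animals at baseline. In LD animals it had 2.33, 1.29 and 2.40 CPM post-induction and 3.11, 0.822 and 2.37 CPM at baseline. Each VHD animal was higher post-induction than at its own baseline, by 0.76, 0.97 and 0.66 on the log2 scale, yet the ranges of the VHD time points overlapped. The LD animals split, with changes of −0.40, 0.58 and 0.01. The VHD baseline had the lowest mean of the 4 groups, 0.990 ± 0.451 CPM, below VHD post-induction at 1.86 ± 0.976, LD post-induction at 2.01 ± 0.619 and LD baseline at 2.10 ± 1.17 (SD, n = 3 each). The highest 3 means differed by less than the SD of any of these groups.

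CD79A had a log2 fold change of 0.91 ± 0.59 (SE, 95% interval −0.36 to 2.17) with induction in VHD animals. Its p, adjusted over all genes tested, was 1 (edgeR quasi-likelihood test). Without the pair of libraries that stood apart the log2 fold change was 0.47. At baseline, VHD over LD was −1.01 ± 0.59 (−2.28 to 0.26, adjusted p = 1), and −1.02 without that pair. Both intervals held 0, and both also held a 2-fold difference. Post-induction, VHD over LD was −0.07 ± 0.57 (−1.31 to 1.16), and −0.53 without that pair.

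CD79B, the partner chain immunoglobulin-beta, had 0.690, 2.85 and 1.71 CPM in VHD animals post-induction and 0.621, 1.97 and 1.15 CPM at their baseline. LD animals had 1.17, 0.453 and 0.767 CPM post-induction and 1.04, 1.20 and 1.15 CPM at baseline. VHD animal 1 was the lowest and VHD animal 2 the highest of its class at both times, so between animals the spread was wider than between the time points. LD baseline was the tightest group of any member, 1.13 ± 0.0838 CPM, against 1.75 ± 1.08 in VHD post-induction, 1.25 ± 0.680 in VHD baseline and 0.795 ± 0.358 in LD post-induction (SD, n = 3 each).

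Post-induction, VHD over LD for CD79B was 1.16 ± 0.59 on the log2 scale (95% interval −0.12 to 2.44). Its unadjusted p was 0.0702 and its adjusted p 0.999, and the value without the libraries that stood apart was 0.65. Both VHD post-induction libraries above the LD range were those of animals 2 and 3, and VHD animal 1 lay within that range. With induction CD79B changed by 0.51 ± 0.58 in VHD animals (−0.74 to 1.75, adjusted p = 1) and by −0.50 ± 0.61 in LD animals (−1.82 to 0.82, adjusted p = 0.958). The VHD value was −0.08 without the pair of libraries. Within animals CD79B was higher post-induction in 3 of 3 VHD animals, by 0.13, 0.50 and 0.53 on the log2 scale, and in 1 of 3 LD animals.

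MS4A1 had 0.966, 1.64 and 1.67 CPM in VHD animals post-induction and 0.621, 1.97 and 1.33 CPM at their baseline. LD animals had 0.265, 1.49 and 2.59 CPM post-induction and 1.90, 0.886 and 3.16 CPM at baseline. LD animal 3 held the 2 highest values of all 12 libraries, and LD animal 1 the lowest of all post-induction. Of the 6 animals, 3 were higher and 3 lower post-induction than at baseline, the widest step being −2.36 on the log2 scale in LD animal 1. The fitted response was 0.13 ± 0.71 in VHD animals (95% interval −1.40 to 1.66) and −0.49 ± 0.71 in LD animals (−2.02 to 1.04), with adjusted p of 1 and 0.969. Without the libraries that stood apart the VHD response was 0.03. For the gene of CD20, then, the groups overlapped throughout and the direction was split between animals.

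**Figure D1:**
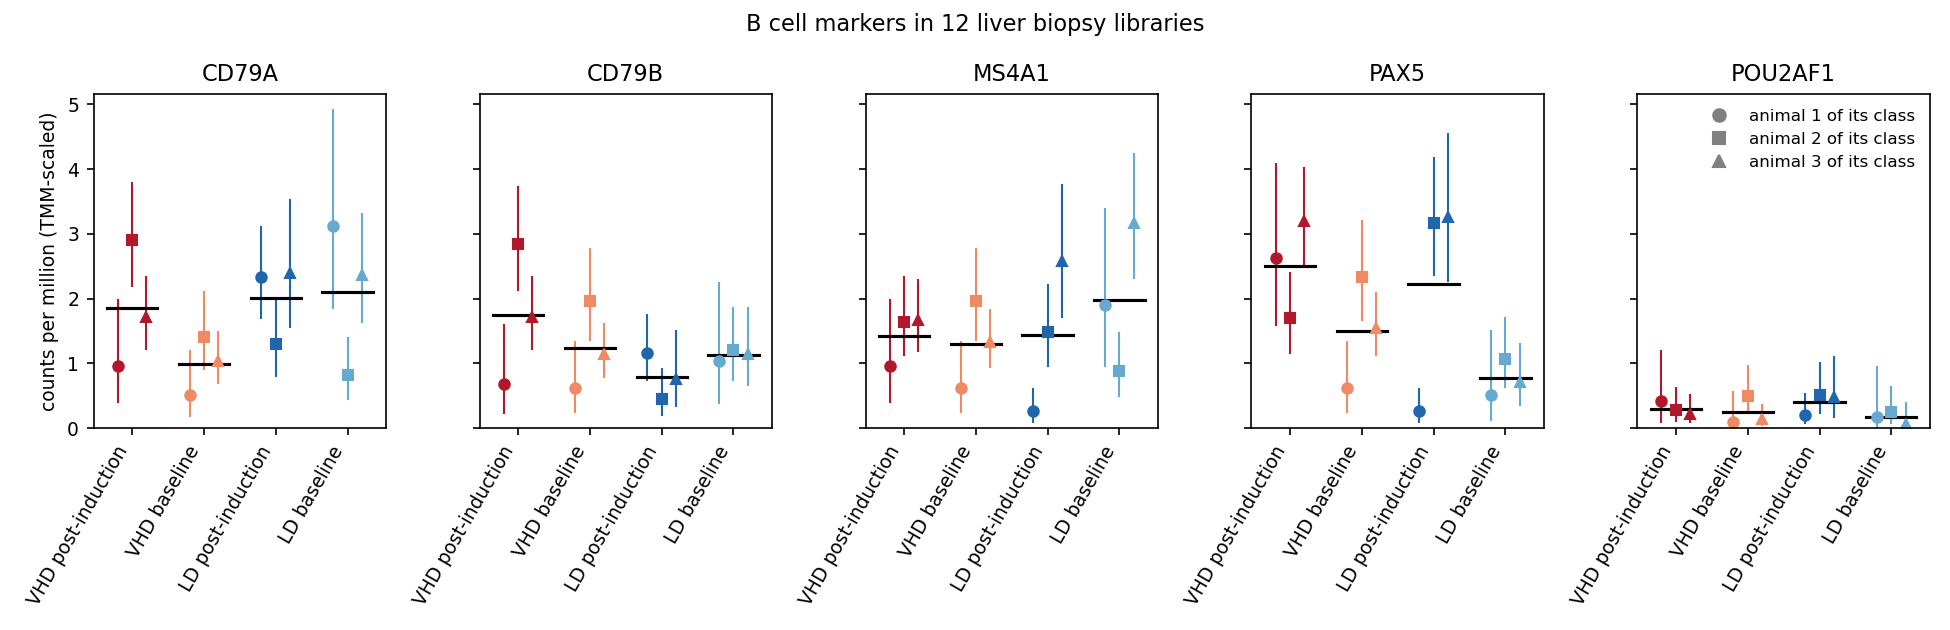
Level of the 5 B cell marker genes found, in CPM on a linear axis, in each of the 12 libraries. Marker shapes give the animal within its class, vertical lines the exact 95% Poisson interval of each count and horizontal lines the group means, with VHD groups left of LD groups. Values ran from 0.0719 CPM for POU2AF1 to 3.26 CPM for PAX5, and for each gene the ranges of VHD and LD overlapped at both times.

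PAX5, the B lineage factor, had 2.62, 1.70 and 3.20 CPM in VHD animals post-induction and 0.621, 2.34 and 1.56 CPM at their baseline. LD animals had 0.265, 3.17 and 3.26 CPM post-induction and 0.519, 1.08 and 0.719 CPM at baseline. The LD libraries of animals 2 and 3 post-induction lay above all 3 LD baseline libraries, but that of animal 1, with 5 counts, lay below them. Of the 6 animals, 4 were higher post-induction, by 1.87 and 0.98 in VHD animals 1 and 3 and by 1.45 and 1.99 in LD animals 2 and 3. The other two were lower, with changes of −0.43 in VHD animal 2 and −0.71 in LD animal 1.

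PAX5 came closest to the threshold among the members. Its mean response over both classes was 1.08 ± 0.52 on the log2 scale (95% interval −0.04 to 2.20), with an unadjusted p of 0.0576 and an adjusted p of 0.652. In LD animals alone the response was 1.45 ± 0.76 (−0.19 to 3.09, adjusted p = 0.856), and in VHD animals 0.71 ± 0.71 (−0.83 to 2.24, adjusted p = 1). The difference of these responses, VHD minus LD, was −0.74 ± 1.04 (−2.99 to 1.50, adjusted p = 1). Without the libraries that stood apart the mean response was 1.19, the VHD response 0.94 and the difference −0.50.

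The reads of PAX5 did not fall on the same transcript in each library. The authors' counts divided them among 3 overlapping transcripts that share most of their span. ENSMMUT00000046458 held 33.6 and 26.8 counts in LD post-induction 2 and 3, 37.9 in VHD post-induction 3 and 7.10 in VHD baseline 3, and at most 1.40 in each of the other 8 libraries. ENSMMUT00000058206 led in VHD post-induction 1 with 17.4 counts, in VHD baseline 2 with 20.5 and in VHD baseline 1 with 5.91, and it had at most 5.49 elsewhere. ENSMMUT00000077787 took most reads in the other 6 libraries, such as 29.5 of 30.9 counts, or 95.3%, in VHD post-induction 2. The high PAX5 libraries were thus high through different transcripts.

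Tested as a transcript, ENSMMUT00000046458 had a mean response of 4.07 ± 1.60 on the log2 scale (95% interval 0.56 to 7.58), an unadjusted p of 0.017 and an adjusted p of 0.645 over 27008 transcripts. Its fitted fold depends on the prior count, since most baseline libraries were near 0. No member transcript that was tested passed the threshold in any comparison, against 0% of all transcripts tested in each. ENSMMUT00000058206 of PAX5, the MS4A1 transcript with the shorter span and both POU2AF1 transcripts did not pass the filter on low counts and were not tested. Short reads cannot place most of a read set among overlapping transcripts without a model, and how the authors' tool divided them is not given in the sources used here.

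**Figure D2:**
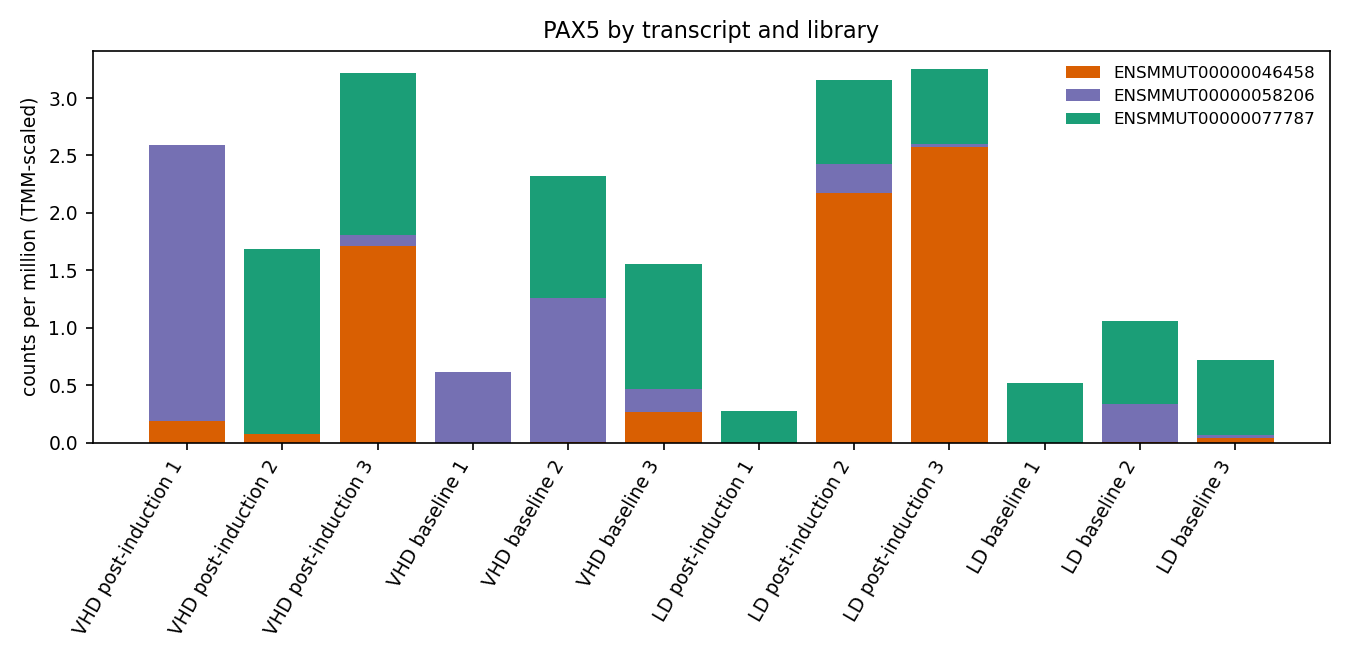
Level of the 3 PAX5 transcripts in each library, in CPM, stacked, with VHD libraries left of LD libraries. ENSMMUT00000046458 makes up 53.0%, 68.8% and 79.1% of the PAX5 counts in VHD post-induction 3, LD post-induction 2 and LD post-induction 3, and under 20% elsewhere.

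POU2AF1, the coactivator shared by B cells and plasma cells, had 0.414, 0.274 and 0.226 CPM in VHD animals post-induction and 0.104, 0.492 and 0.148 CPM at their baseline. LD animals had 0.212, 0.517 and 0.479 CPM post-induction and 0.173, 0.253 and 0.0719 CPM at baseline. Of the 6 animals, 5 were higher post-induction than at baseline, by steps of 0.17 to 1.58 on the log2 scale, and VHD animal 2 was lower, at −0.62. These steps rest on 1 to 8 counts a library. Fitted with no filter on low counts, its mean response was 0.71 ± 0.64 (95% interval −0.66 to 2.07, adjusted p = 0.875).

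Counted together, 0 of the 4 members tested passed an adjusted p of 0.05 in any of the 6 comparisons, by the edgeR test or by DESeq2, and 0 had an unadjusted p under 0.05. Over all 18373 genes tested the share called was 0% post-induction between the classes, 0.00544% at baseline between the classes, 0% for the response in VHD, 0% for the response in LD, 0% for the difference of the responses and 0.267% for the mean response. The members' count cannot be told from such a background. Genes with an unadjusted p under 0.05 numbered 448, 341, 632, 1047, 239 and 1454 in that order. Likewise, 0 of the 5 members had groups that did not overlap, where 4.83% of all genes did so for VHD against LD post-induction, 7.21% at baseline, 6.69% for post-induction against baseline in VHD and 11.7% in LD.

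The intervals show what this design leaves possible. For the difference of the responses, VHD minus LD, CD79A had 0.94 ± 0.82 (95% interval −0.83 to 2.71), CD79B 1.01 ± 0.84 (−0.81 to 2.82) and MS4A1 0.62 ± 1.00 (−1.55 to 2.78), each with an adjusted p of 1. A difference of more than 4-fold between the classes thus lies within each of these intervals. Without the libraries that stood apart the values were 0.49, 0.42 and 0.52. The mean responses of the 3 surface genes sat nearer to 0, at 0.44 ± 0.41 for CD79A (−0.45 to 1.32), 0.00 ± 0.42 for CD79B (−0.90 to 0.91) and −0.18 ± 0.50 for MS4A1 (−1.26 to 0.90).

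**Figure D3:**
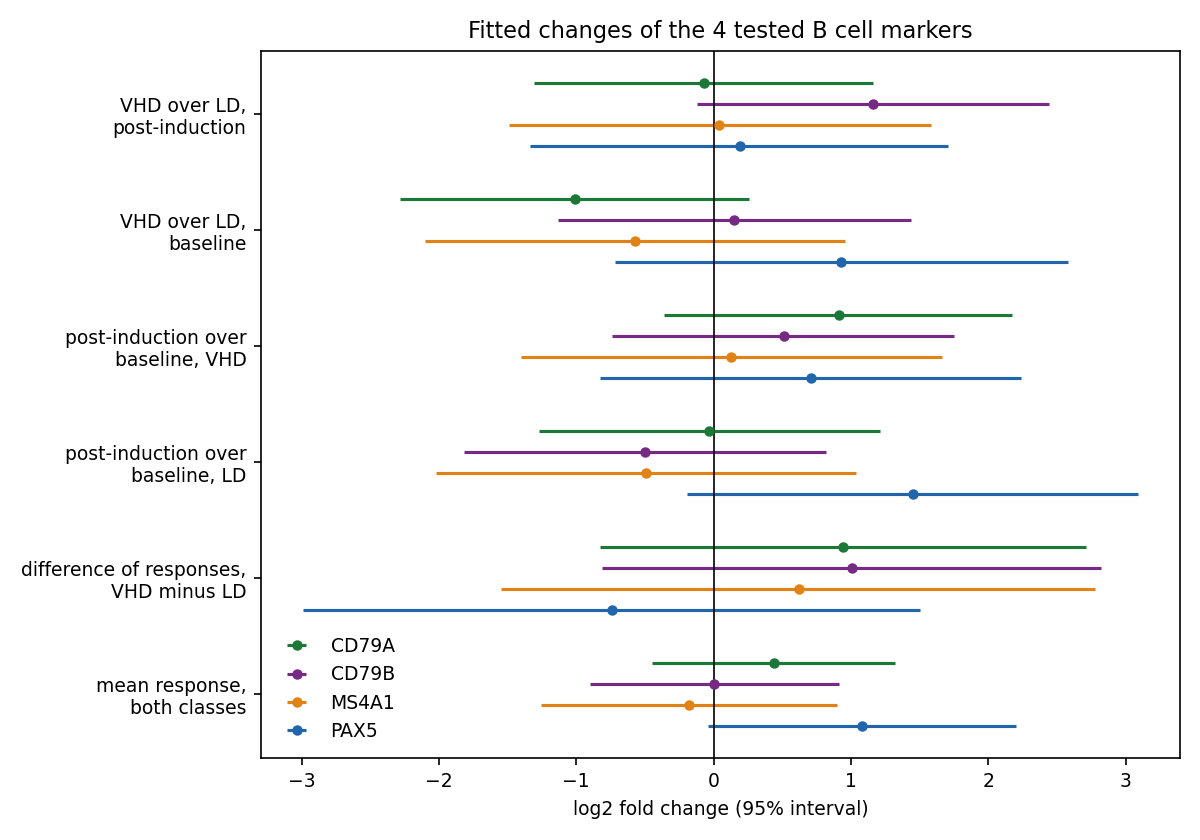
Fitted log2 fold change (points) with 95% interval (lines) of the 4 members tested in the 6 comparisons; within-VHD responses stand above within-LD responses. Every interval crosses 0; CD79B between the classes post-induction (1.16) and PAX5 in the mean response (1.08) come nearest to leaving it.

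The members followed each other only in part. Pearson's r of log2 CPM over the 12 libraries was 0.50 for MS4A1 with PAX5, 0.43 for the partner chains CD79A and CD79B, 0.41 for CD79A with MS4A1, 0.18 for CD79B with MS4A1, −0.01 for CD79B with PAX5 and −0.11 for CD79A with PAX5. Spearman's rho was 0.39, 0.32, 0.63, 0.19, −0.05 and −0.02 for the same pairs in that order, the closest being CD79A with MS4A1. These are descriptions, since the points share animals and a library's depth and make-up. Sums of the 5 members were 5.66, 9.36 and 8.53 CPM in VHD post-induction, 2.49, 8.19 and 5.22 CPM in VHD baseline, 4.24, 6.92 and 9.49 CPM in LD post-induction and 6.75, 4.24 and 7.47 CPM in LD baseline. Each VHD animal had a larger sum post-induction than at baseline, as did LD animals 2 and 3, and the groups overlapped.

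PAX5 followed the main axis of variation of the whole data set. The first principal component of all genes carried 31.4% of the variance. Its sign is arbitrary and was set so that it rose with PAX5. With that sign, its 5 highest libraries were the 5 with most PAX5: LD post-induction 2 and 3, VHD post-induction 3, VHD baseline 2 and VHD post-induction 1. POU2AF1 shared 4 of these 5 among its own highest, MS4A1 3, CD79B 2 and CD79A 1. Of 12031 genes with a symbol and an average level of at least 1 CPM, 399 had r above 0.8 with PAX5, led by AGK at 0.961, TACR1 at 0.954 and UTRN at 0.952. So the PAX5 pattern is one shared by many genes across these libraries.

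The other members had fewer genes like them. MS4A1 had 44 with r above 0.8, led by SLMAP at 0.900, ELK1 at 0.896 and TVP23B at 0.893. CD79B had 6, led by PDLIM7 at 0.855, OLFML2B at 0.846 and CCDC9 at 0.841, and CD79A had 5, led by LRR1 at 0.861, HSBP1 at 0.840 and ADCY4 at 0.836. No other member and no B cell receptor gene was among the 3 genes nearest to any of them.

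B cell surface receptors beyond the members were not called either, but their medians differed from those of the members. Of 21 listed, 18 had an identifier and 17 were tested, and 0 were called in any comparison. At baseline 14 of the 17 had a positive VHD over LD value, with a median of 0.61, against a median of 0.07 over all genes tested. CD180, a toll-like receptor homologue of B cells and myeloid cells, had 1.78 ± 0.81 (adjusted p = 1) and FCER2, the low-affinity IgE receptor, 1.27 ± 0.62 (adjusted p = 1). The 4 members themselves were split in that comparison, 2 positive and 2 negative, with a median of −0.21. The response to induction had a median of −0.03 in VHD and 0.06 in LD animals, with 8 and 10 of 17 positive.

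The Fc receptor-like genes, a family of B cell surface and intracellular regulators, gave the smallest p-values of that list. FCRLA had 3.17, 5.26 and 7.17 CPM in VHD animals post-induction and 2.59, 2.65 and 2.30 CPM at their baseline. These groups did not overlap, as was so for 6.69% of all genes tested in this comparison. The FCRLA response in VHD animals was 1.07 ± 0.41 on the log2 scale, with an unadjusted p of 0.0231 and an adjusted p of 1, and 1.00 without the libraries that stood apart. FCRL3 had 0.583, 6.72 and 4.98 CPM in LD animals post-induction against 0.865, 0.380 and 1.01 CPM at their baseline, a response of 2.46 ± 0.87 with an adjusted p of 0.856. Like PAX5, FCRL3 was high in LD animals 2 and 3 and not in LD animal 1.

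Genes that relay the B cell receptor signal were likewise not called. Of 18 listed, 17 had an identifier and 14 were tested, with median responses of −0.31 in VHD animals, where 10 of 14 were negative, and −0.03 in LD animals. PRKCB, the protein kinase C isoform downstream of the receptor, had the smallest p in the list for the LD response, 1.65 ± 0.72 (adjusted p = 0.856), and PIK3AP1, an adaptor to phosphoinositide 3-kinase, for the VHD response, −1.04 ± 0.45 (adjusted p = 1). Of 14 listed B lineage transcription factors, 12 were tested and 0 called. BCL6, the germinal centre repressor, which hepatocytes also express, had a mean response of −0.72 ± 0.21 with an adjusted p of 0.298, and IKZF1, the lymphoid factor Ikaros, a VHD over LD value of 1.88 ± 0.64 post-induction with an adjusted p of 0.999.

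XBP1 was the only gene of the B cell and plasma cell lists to pass the threshold. It encodes the factor that expands the secretory apparatus in plasma cells and in other secretory cells, hepatocytes included. XBP1 had 90.4, 48.8 and 43.1 CPM in VHD animals post-induction and 297, 207 and 111 CPM at their baseline, and 97.7, 54.6 and 54.5 CPM in LD animals post-induction and 169, 267 and 386 CPM at their baseline. In each class all 3 post-induction values lay below all 3 baseline values. Over all genes tested, the time points did not overlap for 6.69% in VHD and 11.7% in LD animals. XBP1 fell in the mean response, with a log2 fold change of −1.87 ± 0.32 and an adjusted p of 0.0357. The responses were −1.76 ± 0.45 in VHD (adjusted p = 0.698) and −1.99 ± 0.45 in LD animals (adjusted p = 0.562). DESeq2 called both, with adjusted p of 0.0495 in VHD and 0.0186 in LD animals. With the animal as a block the adjusted p of the mean response was 0.0947, without the libraries that stood apart 0.0585, and leaving out single libraries put it between 0.0302 and 0.146.

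Several other genes of the plasma cell list were abundant in every library. Of 17 listed, 13 had an identifier and 12 were tested, and 1 fell and 0 rose in the mean response. SDC1, the syndecan used to sort plasma cells and also made by hepatocytes, had 226 to 553 CPM over the 12 libraries, SSR4, a subunit of the translocon complex, 93.2 to 169 CPM, and HERPUD1, a gene of the unfolded protein response, 134 to 323 CPM. How much of this comes from plasma cells was not tested. JCHAIN, FKBP11, TXNDC5 and PIM2 matched no identifier.

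PRDM1, the repressor that sets the plasma cell state, was read almost wholly in 1 animal. VHD animal 3 had 2070 CPM post-induction and 5601 CPM at baseline, and the other 10 libraries had 0.865 to 5.56 CPM. The VHD over LD values of 7.47 post-induction and 10.4 at baseline, with adjusted p of 0.999 and 1, come from that animal: leaving out its library gave −0.57 post-induction and 0.34 at baseline. No member was at its highest in either library of that animal.

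Of 20 listed names of immunoglobulin chains and their receptors, 15 matched no identifier, 4 were tested and 0 were called. IGLL1, a surrogate light chain gene of B cell precursors, had 0.647 to 1.86 CPM and a VHD over LD value of 0.94 ± 0.48 at baseline (adjusted p = 1), and IGHE, the heavy chain of IgE, had 16 counts in all and was not tested. IGHM, the heavy chain of IgM, was the most abundant chain matched. IGHM had 18.9, 8.87 and 5.14 CPM in VHD animals post-induction and 17.1, 48.3 and 47.2 CPM in LD animals post-induction. At baseline it had 19.5, 32.4 and 15.1 CPM in VHD and 31.2, 11.8 and 16.6 CPM in LD animals. The post-induction ranges overlapped through LD animal 1. VHD over LD was −1.79 ± 0.54 post-induction (unadjusted p = 0.0065, adjusted p = 0.999), and the difference of the responses was −1.97 ± 0.76 (unadjusted p = 0.0236, adjusted p = 1). Without the libraries that stood apart these were −1.66 and −2.06. The chains that signal for surface IgM had −0.07 (CD79A) and 1.16 (CD79B) post-induction, and 0.94 and 1.01 for the difference of the responses.

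Genes that feed or attract B cells were read at varied levels. Of 13 listed, 11 had an identifier and 7 were tested, and 0 were called. CXCL13, the chemokine of B cell follicles, had at most 0.493 CPM and was at 0 counts in VHD post-induction 1, and TNFSF13B, the survival factor BAFF, had 4.24 to 12.9 CPM. CCR7, a homing receptor of naive lymphocytes, had 2.48, 1.37 and 1.99 CPM in VHD animals post-induction against 0.207, 0.862 and 1.33 CPM at baseline, and 0.477, 1.68 and 1.73 CPM in LD animals post-induction against 0.519, 0.633 and 0.503 CPM at baseline. Its mean response was 1.19 ± 0.46 with an adjusted p of 0.504, the same size in both classes. Of 14 listed antigen presentation genes, 8 were tested and 0 called.

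Other leukocytes of the biopsy were read by lists of the same kind. Of 22 T and NK cell genes, 17 had an identifier and 14 were tested; of macrophage and Kupffer cell genes 10 of 14 were tested, of neutrophil genes 12 of 13 and of pan-leukocyte genes 8 of 10. None was called. T and NK cell genes summed to 40.2 to 102 CPM in VHD post-induction, 43.9 to 247 CPM in VHD baseline, 41.4 to 349 CPM in LD post-induction and 31.7 to 58.5 CPM in LD baseline, sums led by IL2RB at up to 321 CPM. CD8B, CD247 and CD5 were at 0 counts in at least 1 library, and CD3E was present in all.

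In VHD animals the lists had different signs for the response to induction. The median over the 4 members was 0.61, with 4 of 4 positive, while it was −0.58 over T and NK cell genes, with 12 of 14 negative, and −0.42 over macrophage genes, with 10 of 10 negative; pan-leukocyte genes had −0.29, neutrophil genes 0.03 and all genes tested 0.03. The wider B cell lists had smaller or negative fitted medians. These were −0.03 over surface receptors, with 8 of 17 positive, and −0.31 over receptor signalling genes, with 10 of 14 negative. B lineage transcription factors had 0.05, with 7 of 12 positive, and plasma cell genes 0.06, with 7 of 12 positive. In LD animals the members had −0.26, T and NK cell genes 0.28, macrophage genes 0.19 and all genes 0.08. Without the libraries that stood apart, the VHD medians were 0.25 for the members, with 3 of 4 positive, −0.64 for T and NK cell genes and −0.53 for macrophage genes. By animal, the member medians were 0.65, 0.13 and 0.59 in VHD and −0.56, 0.62 and −0.13 in LD animals. B cell surface receptors had 0.7, −0.08 and 0.44 in VHD and −0.4, 0.53 and 0.49 in LD animals. In VHD animals, receptor signalling genes had −0.14, −0.38 and 0.09, and B lineage transcription factors 0.26, −0.08 and −0.42. T and NK cell genes had −0.38, −0.88 and −0.51 in VHD and 0.05, 0.38 and 0.22 in LD animals. These medians carry no test, and in bulk tissue fewer cells of a type and less RNA per cell cannot be told apart.

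**Figure D4:**
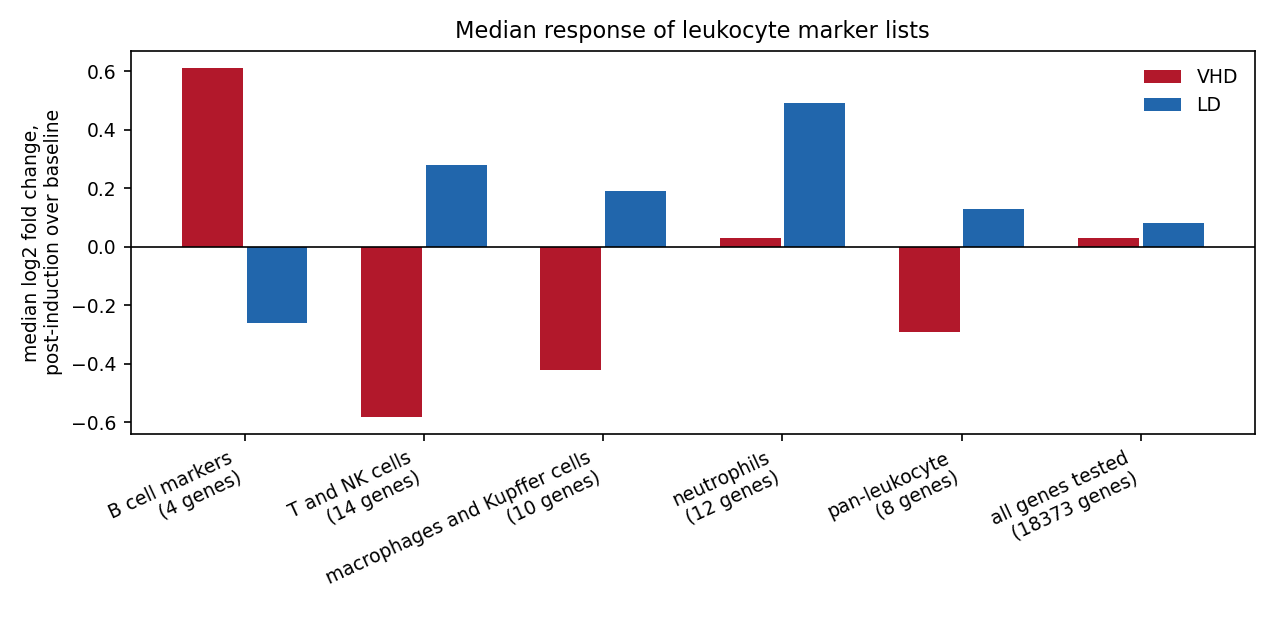
Median fitted log2 fold change of post-induction over baseline, over the 4 members tested, each list of other leukocytes and all genes tested (bars from 0), with VHD left of LD in each pair. The bars carry no error and no test; members stand at 0.61 in VHD and −0.26 in LD, and T and NK cell genes at −0.58 in VHD and 0.28 in LD.

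At baseline most lists of leukocyte genes, B cell surface receptors included, had positive VHD over LD medians, and the 4 members did not. The median VHD over LD value was 0.66 over T and NK cell genes, with 14 of 14 positive, 0.51 over macrophage genes, with 10 of 10 positive, 0.54 over neutrophil genes, with 12 of 12 positive, and 0.61 over B cell surface receptors, with 14 of 17 positive, against 0.07 over all genes. The members had −0.21. Responses in VHD are measured against that same baseline, so these values and those of the VHD response share libraries and are not independent.

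Mature miRNAs of the same libraries included several known from lymphocytes. Of 8 names listed, 14 mature forms were found and 10 tested, and 0 were called in any comparison, with 0 at an unadjusted p under 0.05, against 0% of all 427 miRNAs. miR-150-5p, abundant in mature lymphocytes, had 230, 23.2 and 207 CPM of miRNA counts in VHD animals post-induction and 471, 370 and 45.8 CPM at their baseline, and 229, 222 and 210 CPM in LD animals post-induction and 462, 149 and 121 CPM at their baseline. miR-155, induced on activation of B cells and macrophages, had 174, 2.57 and 358 CPM in VHD post-induction, 410, 257 and 27.5 CPM in VHD baseline, 340, 195 and 345 CPM in LD post-induction and 384, 191 and 342 CPM in LD baseline. For both miRNAs the lowest libraries were VHD post-induction 2 and VHD baseline 3, the pair that stood apart. The members took ranks 1 to 6 of the 12 libraries in VHD post-induction 2 and ranks 7 to 10 in VHD baseline 3.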

How the data were processed

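Liver RNA was made into libraries that join mRNA and miRNA (500 ng per sample, reads of 76 bases), per the labels' protocols. The authors deposited expected counts per Ensembl transcript and per mature miRNA, and normalized signal values, of which those for transcripts were used here in an alternative only. Partek, Bowtie, BWA and Mmul_8.0.1 are named per the submitters' processing notes. Their versions, roles and the annotation release were not stated there. Of the transcript values, 40.1% were whole numbers.

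The 40611 transcripts were summed to 23993 genes and rounded to whole counts; symbols came from a table of gene names, which matched 15471 identifiers. Tests used R 4.3.3 and edgeR 4.0.16: filterByExpr by group (18373 genes, 427 miRNAs), TMM, a robust quasi-likelihood fit of 4 group means over 12 libraries, and Benjamini-Hochberg adjustment over all features with a threshold of 0.05. SEs are Wald errors. CPM were scaled by the TMM-adjusted library size. The log2 CPM used for animals, components and likeness had a prior count of 2. Scripts were tested on simulated data.

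Members and lists were chosen with earlier results of these data known. Every member was named; of other lists, genes past the threshold or else up to 2 with the smallest p per comparison, and some values of further genes were added after they were seen; likeness took the 3 genes with the highest r. Alternatives used DESeq2 1.42.0, limma 3.58.1, other factors and filters, single libraries left out, and a block. For the responses the block was the animal. Between the classes it was the replicate number, which joins different animals and so is no check on those values. Baseline and post-induction libraries of 1 animal are paired by the titles; their deviations from the group means correlated with r of 0.406, −0.354 and 0.104 in VHD and 0.075, −0.016 and 0.351 in LD animals. Numbers shared between VHD and LD name different animals. No sequence is printed, as no genome or sequence table was used. The values of 1 listed gene are not reported here.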

Additional observations from a re-analysis of the deposited data

How the results depend on the processing

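The count of members called stayed at 0 under every alternative run, and so did that of the listed miRNAs. The alternatives were DESeq2, RLE and upper-quartile factors, no filter, the replicate block, each library left out, and both libraries that stood apart left out. For genes only, they included a filter of 1 CPM in 3 libraries, only the groups compared, and limma-trend on the deposited normalized values. The replicate block was the animal for the responses, but between the classes it joined different animals that share a number. Testing transcripts in place of genes, chosen after seeing the data, also gave 0. Of 532 member values under alternatives, 495 kept their direction, 37 reversed and 0 passed the threshold. Most reversals were of values near 0, but 2 were of the VHD response of CD79B, at 0.51 with all libraries, and 2 of the LD response of MS4A1, at −0.49; their cause was not tested. MS4A1 between the classes post-induction was −0.01 with upper-quartile factors and −0.05 without both libraries; CD79B between the classes at baseline was −0.02 with limma-trend and a pseudocount of 0.1. The LD response of CD79A was 0.05 with upper-quartile factors, 0.07 with the replicate block, and 0.01 and 0.06 with limma-trend and pseudocounts of 1 and 0.1. CD79B became −0.08 without both libraries in the VHD response, and in the mean response −0.08 with the replicate block, 0.00 and −0.07 with limma-trend, and −0.29 without both libraries. With single libraries left out, values between the classes post-induction ranged from −0.54 to 0.20 for CD79A, −0.47 to 0.74 for MS4A1, −0.36 to 0.56 for PAX5 and −0.57 to 8.05 for PRDM1, and at baseline from −0.33 to 0.44 for CD79B. Responses ranged from −0.44 to 0.26 for CD79A and −1.19 to 0.08 for MS4A1 in LD, from −0.01 to 0.92 for CD79B and −0.18 to 0.46 for MS4A1 in VHD, and from −0.26 to 0.18 for CD79B and −0.53 to 0.10 for MS4A1 in the mean response. The call of XBP1 was lost in 11 of 21 alternatives, its value lying between −2.08 and −1.69. Over the whole table, the mean response had 49 genes called, 284 with DESeq2, 4 with the replicate block, 0 to 71 with 1 library left out, 32 without both libraries and 0 of transcripts; DESeq2 called 64 genes for the VHD response and 54 for the LD response, where edgeR called 0. DESeq2 called XBP1 in each class, with adjusted p of 0.0495 in VHD and 0.0186 in LD animals. Except XBP1, the replicate block changed no call of a gene named here. Counts of 3 to 71 per library limit what the members can show.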

Other observations

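CD83, an activation marker of B cells and dendritic cells, and S100A8, a calcium-binding protein of neutrophils and monocytes, had small unadjusted p-values in the VHD response, and neither was called. CD83 had a log2 fold change of −1.43 ± 0.43 with induction in VHD animals (unadjusted p = 0.00555, adjusted p = 0.864) and 0.63 ± 0.42 in LD animals (adjusted p = 0.89), and −1.5 in VHD animals without the libraries that stood apart. The difference of its responses was −2.06 ± 0.60 (unadjusted p = 0.00466, adjusted p = 1). S100A8 had −2.98 ± 0.56 in VHD animals (unadjusted p = 0.000179, adjusted p = 0.287) and a mean response of −1.97 ± 0.39 (adjusted p = 0.0693), and −1.99 and −1.48 without those libraries. The neutrophil list did not fall as a set: 6 of 12 genes tested had positive VHD responses and 8 of 12 positive mean responses. ELANE, of that list, had 1.14 ± 0.51 in VHD animals (unadjusted p = 0.0421) and a mean response of 1.1 ± 0.36 (adjusted p = 0.372).

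Red cell genes had positive values in both classes: 7 of 7 tested were positive in VHD and in LD animals, with median responses of 0.62 and 0.57 against 0.03 and 0.08 over all genes. The share of blood in each biopsy was not measured.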
